A study of Mus musculus with 16 samples.

Results

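The 10 genes followed here maintain chromosome ends, and they were measured across mouse blood stem cells and pluripotent cells. They are Tert, Terf1, Terf2, Terf2ip, Pot1a, Tinf2, Acd, Dkc1, Rif1 and Zscan4c. Members were all probe sets on the array that carried exactly 1 gene symbol, that of a listed gene. This gave 25 probe sets of 9 genes, out of 45037 non-control probe sets and 18193 genes. Zscan4c had no such probe set, because the probe set that carries its symbol lists 6 genes together, so it is not analysed here.

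The 16 Affymetrix arrays came from C57Bl6 wild-type cells in 7 groups. Induced pluripotent stem cells (iPSC) had an aged (2 arrays) or young (2 arrays) haematopoietic origin. Embryonic stem cells (ESC) came from 2 suppliers, 1 array each, and like the iPSC were grown on mouse embryonic fibroblast feeders. Haematopoietic stem cells (HSC), which rebuild all blood lineages, came from bone marrow. Transplanted HSC were labelled aged (2 arrays) or young (2 arrays), with no age in months, no sex and no word on whether the age is that of the donor. Steady-state HSC came from male mice, 3 aged samples (21 to 24 months) and 3 young ones (3 to 4 months). Each array was prepared from 10000 cells. The labels do not say whether the 2 iPSC arrays of an origin are separate clones.

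Telomeres are repeat arrays that cap chromosomes and shorten at each round of replication unless they are extended. Telomerase adds the repeats: TERT is its catalytic reverse transcriptase, and dyskerin, encoded by Dkc1, binds and stabilises its RNA. Shelterin covers the repeats and keeps them from being read as DNA breaks, and telomerase is strong in pluripotent cells but low in most adult cells, with some activity in blood stem and progenitor cells.

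In build GRCm38.p6, RefSeq places Tert on chromosome 13 (73626911-73649843), Dkc1 on chromosome X (75095854-75109776) and Rif1 on chromosome 2 (52072815-52126769). Terf1 lies on chromosome 1 (15805546-15844052), Pot1a on chromosome 6 (25743940-25809277) and Tinf2 on chromosome 14 (55676208-55682159). Acd (105698155-105701228), Terf2 (107069400-107096548) and Terf2ip (112011359-112020528) all lie on chromosome 8.

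Levels are given as log2 of the deposited intensity. Where a gene had several probe sets, the one with the highest mean over the 16 arrays stood for the gene, and the rest are described beside it; 8 of the 9 genes had more than 1. A gene passed the test where limma, a linear model fitted over all genes, gave a Benjamini-Hochberg adjusted p under 0.05. All 9 stood above the filter on dim genes (25th percentile of mean level) in every fit. The HSC arrays carried HSC RNA. The 8 measured HSC markers, Slamf1 and Mecom among them, had a median of 9.74 to 11.93 log2 in the HSC groups. In iPSC and ESC that median was 4.58 to 4.80. All 8 lay above the 25th percentile of genes in steady-state and transplanted HSC. Their summed intensity was 8450 to 9859 on transplanted arrays, against 24588 to 28518 on steady-state arrays. The 10 pluripotency markers were all above that percentile in iPSC and ESC. This cut is low and does not measure purity. All 6 myeloid markers also passed it in both steady-state HSC groups, and all 4 measured B cell markers in both iPSC groups. Median intensity per array was 50.3 to 51.9 on the transplanted arrays and 43.5 to 46.3 on all others. These are bulk samples, in which fewer cells of a type and less RNA per cell cannot be told apart.

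The changes of the 9 genes that passed the test all lay between cell types or between transplanted and steady-state HSC. In iPSC against steady-state HSC, Tinf2 was 4.94-fold higher, and Tert, Acd, Dkc1 and Rif1 were also higher, whereas Terf2, Pot1a and Terf2ip were lower. In all, 8 of the 9 genes passed the test, 5 of them upward and 3 downward, among 13645 genes of which 76.4% passed (41.8% upward and 34.7% downward). A count of 8 of 9 is close to that background and says little about telomere genes as a group. Arrays of 5 genes lay wholly higher in iPSC and of 3 wholly lower, where 39.6% and 33.7% of all genes did (73.3% together). Of the 25 probe sets 11 rose and 6 fell, against 33.8% and 23.6% of all probe sets, or 57.4% together. The shelterin genes went in opposite directions: 2 of 6 rose and 3 fell.

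**Figure D1:**
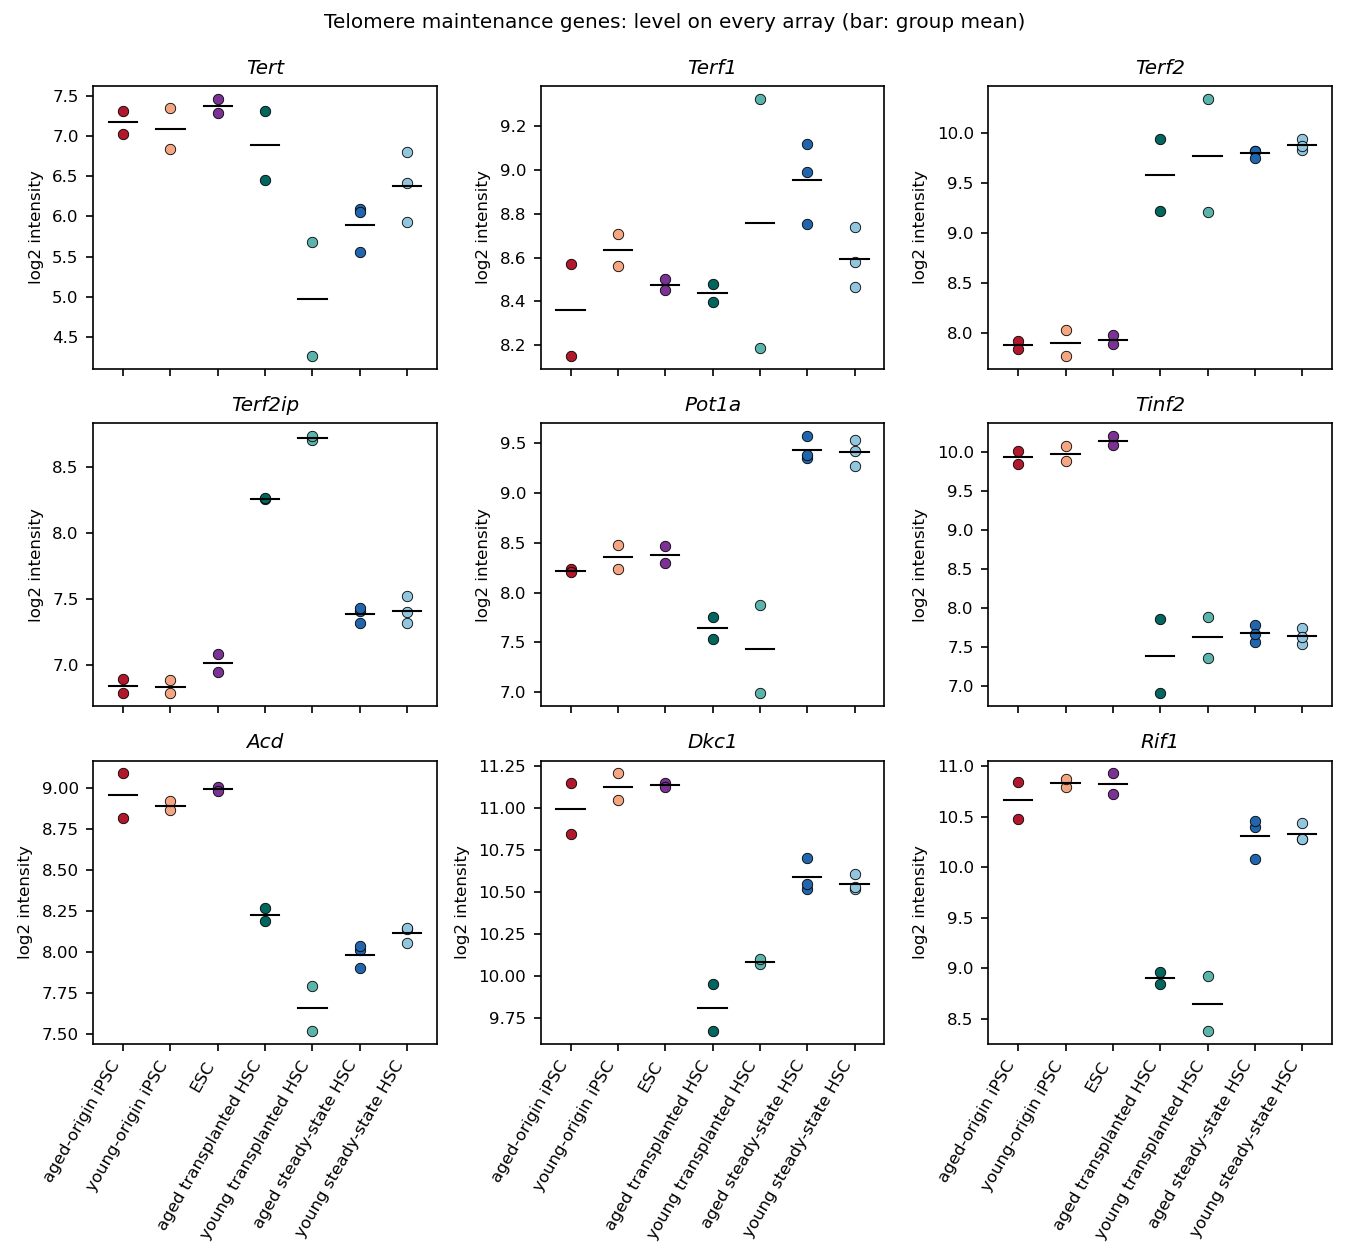
Log2 intensity (vertical axis) of the probe set that stands for each of the 9 genes, on every one of the 16 arrays; each point is an array and each bar a group mean, and the vertical scales differ between panels. Tinf2, Acd and Dkc1 are higher on all iPSC and ESC arrays than on all HSC arrays, and Terf2 is lower.

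The promoters of Tert, Tinf2 and Terf2 are shown because these genes encode the telomerase enzyme and the shelterin subunits with the largest rise and the largest fall in iPSC. Each window is RefSeq sequence of build GRCm38.p6, from 250 bases before to 50 bases after an annotated start, printed 5′ to 3′ on the gene's strand. The Tinf2 window lies wholly inside the gene's range given above, so its start is not the outer end of that range. Terf2 had 2 windows, and 1 of them is printed. Capitals mark matches, on both strands, to the GC box GGGCGG, bound by Sp1-type factors, and to the cyclic AMP response element TGACGTCA. The Myc E-box CACGTG was searched too and was in none of the members' windows; no matches overlapped each other.
Tert, chr13:73626661-73626960, plus strand: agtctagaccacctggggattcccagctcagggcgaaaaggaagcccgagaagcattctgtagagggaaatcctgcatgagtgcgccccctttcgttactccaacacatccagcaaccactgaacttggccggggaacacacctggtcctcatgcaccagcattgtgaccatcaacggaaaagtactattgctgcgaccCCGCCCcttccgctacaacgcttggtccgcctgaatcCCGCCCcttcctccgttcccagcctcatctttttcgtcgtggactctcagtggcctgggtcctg
Tinf2, chr14:55681768-55682067, minus strand: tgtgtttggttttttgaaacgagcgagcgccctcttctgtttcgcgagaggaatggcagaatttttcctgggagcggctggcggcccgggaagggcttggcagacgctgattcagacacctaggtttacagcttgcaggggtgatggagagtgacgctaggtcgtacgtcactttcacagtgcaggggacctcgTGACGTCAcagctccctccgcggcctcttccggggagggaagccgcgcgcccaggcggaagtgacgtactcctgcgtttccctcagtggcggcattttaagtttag
Terf2, chr8:107096496-107096795, minus strand: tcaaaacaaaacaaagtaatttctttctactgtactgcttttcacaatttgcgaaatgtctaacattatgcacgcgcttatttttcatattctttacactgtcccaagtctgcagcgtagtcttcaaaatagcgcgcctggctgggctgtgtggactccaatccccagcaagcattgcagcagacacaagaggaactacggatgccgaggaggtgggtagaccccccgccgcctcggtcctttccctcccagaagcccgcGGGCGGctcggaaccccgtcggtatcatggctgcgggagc

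Windows were found for 8 of the 10 listed genes, Zscan4c among them; Terf1 and Rif1 had none. The GC box was in 4 of the 8 (Tert, Terf2, Terf2ip and Pot1a), against 35.7% of 32851 promoter windows. The response element was in 2, Tinf2 and Pot1a, against 1.79% of all windows, and these 2 genes went in opposite directions in iPSC. The E-box was in 7.15% of all windows. A match describes letters in a window and is not a bound site.

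Telomerase genes come first. Tert stood at 7.03 and 7.31 log2 in aged-origin iPSC and 6.84 and 7.34 in young-origin iPSC, against 6.09, 5.55 and 6.06 in aged and 5.93, 6.80 and 6.41 in young steady-state HSC. Every iPSC array was above every steady-state array, by a narrow margin of 6.84 against 6.80. Tert rose 1.99-fold (log2 0.99, SE 0.27, adjusted p = 0.00409), and with 64 added to each intensity the log2 difference was 0.59. The other Tert probe set, 1450254_at, is dim, lying below the 25th percentile of genes in young steady-state HSC, and also rose (log2 0.57, SE 0.13, adjusted p = 0.00193).

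ESC had the highest Tert mean of the 7 groups (7.37 ± 0.12, SD, n = 2). Aged-origin iPSC followed at 7.17 ± 0.20 and young-origin iPSC at 7.09 ± 0.36. Aged transplanted HSC averaged 6.88 ± 0.61 and young steady-state HSC 6.38 ± 0.44. Aged steady-state HSC averaged 5.90 ± 0.30, and young transplanted HSC came last at 4.97 ± 1.00. Arrays of each group overlapped those of the next group in this order, so no step between neighbours was clear of the spread.

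Dkc1 stood at 11.15 and 10.84 log2 in aged-origin iPSC and 11.20 and 11.05 in young-origin iPSC, against 10.52, 10.70 and 10.55 in aged and 10.52, 10.61 and 10.53 in young steady-state HSC. The iPSC arrays lay above all 6 HSC arrays. Dkc1 rose 1.40-fold (log2 0.49, SE 0.11, adjusted p = 0.000848), and its other probe sets rose too, 1438015_at by 0.35 and 1441788_s_at by 1.11 log2. Dkc1 lies on chromosome X, and the sample titles call the steady-state HSC male but give no sex for iPSC. A part of sex in these differences was not tested. ESC had the highest mean, 11.14 ± 0.02 (SD, n = 2), and aged transplanted HSC the lowest, 9.81 ± 0.19.

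The wider telomerase list, covering assembly, trafficking and recruitment, had 18 genes tested, Tert and Dkc1 included. In iPSC, 11 rose and 1 fell, where 41.8% of all genes rose and 34.7% fell, with a median of 0.62 log2 where all genes had 0.17. Ruvbl2, an ATPase of the telomerase assembly machinery, rose by 1.77 log2, and Wrap53, which carries the enzyme to Cajal bodies, by 1.57. The chaperone gene Hsp90aa1 rose by 1.33, and Tent4b, whose product adenylates the telomerase RNA in human cells and marks it for decay, fell by 1.15 log2 (adjusted p at or below 8.23e-07 for these 4). Of the other proteins that sit with dyskerin on the RNA, named after their values were seen, Nhp2 rose by 2.15 log2 (adjusted p = 0.000108). Nop10 (0.16, adjusted p = 0.261) and Gar1 (0.37, adjusted p = 0.175) did not pass.

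Of the 6 shelterin genes, Tinf2 and Acd rose. TIN2, the product of Tinf2, links the double-strand binders to the rest of the complex. Tinf2 stood at 9.85 and 10.02 log2 in aged-origin iPSC and 10.07 and 9.89 in young-origin iPSC, against 7.56, 7.79 and 7.67 in aged and 7.74, 7.53 and 7.63 in young steady-state HSC. The groups were more than 2 log2 units apart on every array, and the rise was 2.30 log2 (SE 0.17, adjusted p = 1.44e-08). ESC stood at 10.09 and 10.21, and the transplanted arrays between 6.90 and 7.88. The second probe set, 1437166_at, did not follow: 6.03 in iPSC against 6.25 in steady-state HSC (log2 -0.22, SE 0.20, adjusted p = 0.358), and the mean of both gave a rise of 1.04.

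Acd encodes TPP1, which recruits telomerase to the chromosome end and pairs with POT1. It stood at 9.09 and 8.82 log2 in aged-origin iPSC and 8.87 and 8.92 in young-origin iPSC, against 7.90, 8.01 and 8.04 in aged and 8.06, 8.14 and 8.14 in young steady-state HSC. The groups did not overlap, and Acd rose 1.84-fold (log2 0.88, SE 0.10, adjusted p = 2.65e-06). ESC arrays stood at 9.01 and 8.98. Acd has 1 probe set, so no second measurement of it was at hand.

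Terf2, Pot1a and Terf2ip fell, and Terf1 did not pass. Terf2 encodes TRF2, which binds the double-stranded repeats and folds the end into a protective loop. It stood at 7.91 and 7.84 log2 in aged-origin iPSC and 7.76 and 8.03 in young-origin iPSC, against 9.82, 9.82 and 9.75 in aged and 9.83, 9.94 and 9.88 in young steady-state HSC. All iPSC arrays were low and close to the ESC arrays (7.97 and 7.89). Terf2 fell by 1.96 log2 (SE 0.19, adjusted p = 3.79e-07), a level 3.88-fold lower in iPSC, and a second probe set, 1421147_at, fell by 1.24 (adjusted p = 0.000576). The third, 1459650_at, had a difference of 0.56 (adjusted p = 0.159), and the mean of all 3 gave a fall of 0.88.

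Pot1a, whose protein covers the single-stranded overhang, stood at 8.24 and 8.20 log2 in aged-origin iPSC and 8.48 and 8.24 in young-origin iPSC, against 9.57, 9.35 and 9.38 in aged and 9.42, 9.53 and 9.27 in young steady-state HSC. The groups were clear of each other, and Pot1a fell by 1.13 log2 (SE 0.15, adjusted p = 1.15e-05). Its other 3 probe sets were dim, at or below 4.91 on every iPSC and steady-state array; 1440568_at fell by 0.66 (adjusted p = 0.0324), and the mean of all 4 gave a fall of 0.47. Pot1b, the other mouse gene of this kind, named after its value was seen, fell by 0.50 (adjusted p = 0.0459).

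Terf2ip encodes RAP1, the partner of TRF2. It stood at 6.78 and 6.90 log2 in aged-origin iPSC and 6.79 and 6.88 in young-origin iPSC, against 7.41, 7.32 and 7.43 in aged and 7.52, 7.40 and 7.32 in young steady-state HSC. It fell by 0.56 log2 (SE 0.10, adjusted p = 0.000108), and after quantile normalization the fall was 0.28. Probe set 1419381_at also fell (log2 -1.14), and 1456400_at lay below the 25th percentile of genes in all 7 groups. Terf1 encodes TRF1, which binds the double-stranded repeats and helps forks pass through them; it averaged 8.50 in iPSC against 8.77 in steady-state HSC and did not pass (log2 -0.28, SE 0.18, adjusted p = 0.181). In a fit on the iPSC and steady-state arrays alone Terf1 passed at the same size (adjusted p = 0.0408).

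**Figure D2:**
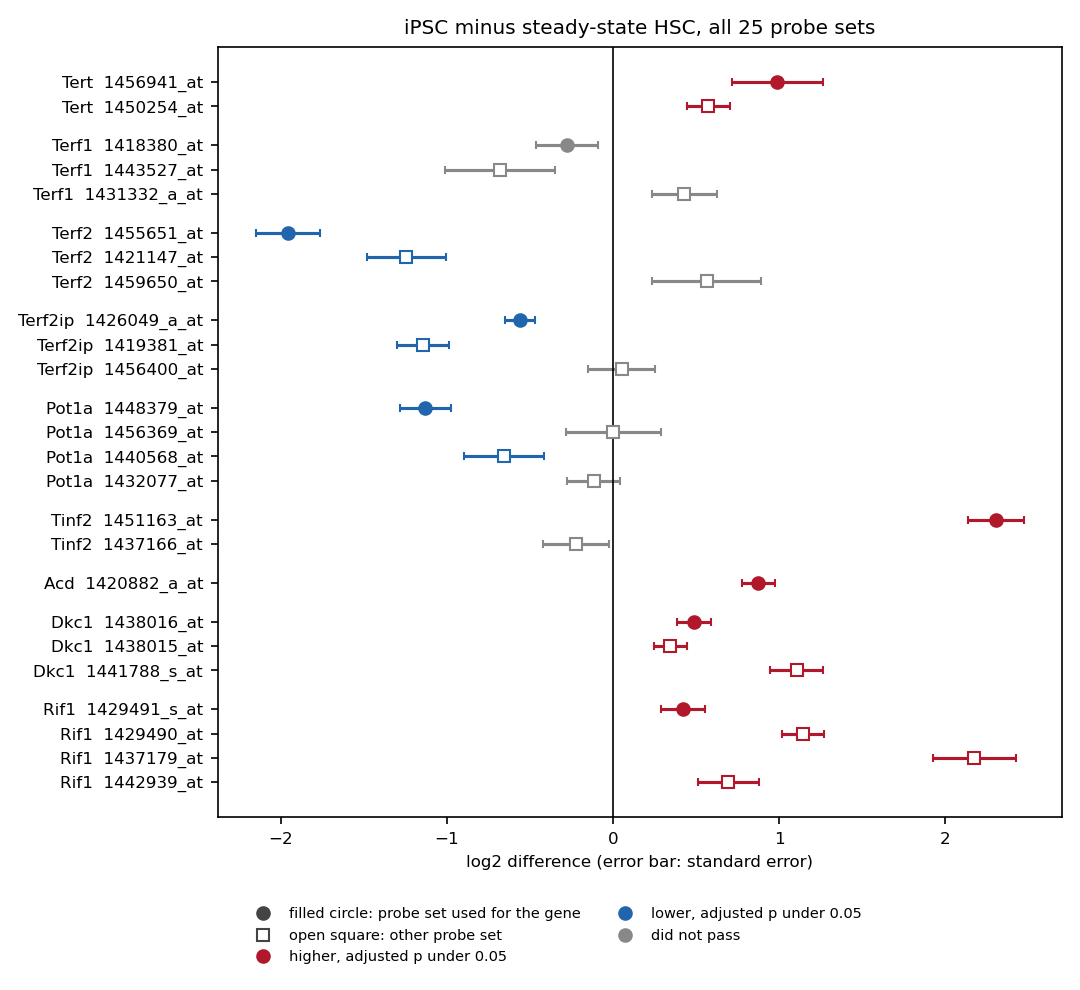
Log2 difference (horizontal axis, error bar standard error) of iPSC minus steady-state HSC for each of the 25 probe sets, grouped by gene; filled circles stand for the gene and colour marks the test. All 4 Rif1 probe sets and all 3 Dkc1 probe sets are higher in iPSC, whereas 1 of the 2 Tinf2 probe sets is.

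Rif1, named for its binding to the telomere protein Rap1 in budding yeast, sets replication timing and steers break repair in mammals. It stood at 10.85 and 10.47 log2 in aged-origin iPSC and 10.79 and 10.87 in young-origin iPSC, against 10.40, 10.08 and 10.46 in aged and 10.28, 10.44 and 10.28 in young steady-state HSC. The lowest iPSC array cleared the highest HSC array by a small margin, and Rif1 rose 1.34-fold (log2 0.42, SE 0.14, adjusted p = 0.0111). Without aged-origin iPSC array 1 the difference was 0.33 and did not pass (adjusted p = 0.0681). Every other Rif1 probe set rose by more: 1437179_at by 2.17, 1429490_at by 1.15 and 1442939_at by 0.69 log2. The probe set that stands for Rif1, 1429491_s_at, is of a type that can match several transcripts.

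Of 20 tested genes that replicate and process telomere ends, Rif1 included, 17 rose in iPSC and 3 fell, where 41.8% of all genes rose and 34.7% fell. Their median was 1.16 log2, beside 0.17 for all genes. Exo1, a nuclease that resects the end, rose by 2.24, the helicase gene Rtel1, whose product unwinds the protective loop, by 1.87, and Pola2, a subunit of the polymerase that fills in the lagging strand, by 1.72 log2. The helicase gene Wrn fell by 2.33 log2 (adjusted p = 2.3e-10). All 3 genes of the CST complex, which ends telomerase action and brings in that polymerase, rose, as found after their values were seen: Stn1 by 2.40, Ctc1 by 1.31 and Ten1 by 0.76 log2. Proliferation genes rose alongside, 23 of 26 with a median of 1.34 log2 and with Ccne1 at 3.30; their part in these differences was not tested.

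Among shelterin and its partners, 6 of 17 genes rose and 9 fell. That and the counts of the lists that follow stand beside the 41.8% rising and 34.7% falling over all genes, 76.4% together. Besides the subunits above, Nek7, a kinase reported to stabilise TRF1 in human cells, fell by 2.06 log2, and Tnks, whose tankyrase releases human TRF1 from telomeres, fell by 1.44. Siah1a, whose human counterpart targets TRF2 for degradation, fell by 1.02, and Zbtb48, which binds telomeric repeats directly, rose by 1.55 log2. In the recombination, repair and chromatin list 12 of 23 rose and 5 fell; Fancd2, of the crosslink repair pathway, rose by 2.39, and the DNA methyltransferase genes Dnmt3b and Dnmt3a by 2.19 and 1.77 log2. The damage kinase gene Atm fell by 1.77. Of 39 symbols in the 2-cell-stage list 15 were measured and 8 tested, with 6 rising. In the HSC fits the dim filter kept 5. The further genes, Dppa2 and Dppa4 among them, passed it only through the iPSC and ESC arrays, which favours a rise. Dppa2 (log2 8.44) and Dppa4 (5.52), general pluripotency genes, had the smallest p, while Zfp809 fell by 1.06 log2 and Sp110 fell by 1.38 log2.

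Reported regulators of Tert transcription had 4 of 15 genes rising and 8 falling. In the HSC fits the dim filter kept 14. The further gene passed it only through the iPSC and ESC arrays, which favours a rise. Mxd4 and Mxd1, whose products compete with Myc for its partner Max, had differences of -3.09 and -2.78 log2, the GC-box factor gene Sp3 fell by 2.81 and Ctnnb1, encoding beta-catenin, fell by 1.21. Myc itself, named after its value was seen, fell by 0.65 (adjusted p = 0.00802). Fibroblast markers, which the feeder cells could add, had 7 of 9 genes above the 25th percentile in iPSC. Their summed intensity was 1613 to 2869 on the iPSC arrays, against 1934 to 2809 on the steady-state arrays. Their median, however, was 5.95 log2 in young-origin and 5.80 in aged-origin iPSC, against 4.95 in young and 4.85 in aged steady-state HSC. The markers Col3a1 and Lum lay below that percentile in iPSC and in steady-state HSC. A part of feeder RNA in the differences was not tested.

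The iPSC were then set against ESC, to ask whether reprogrammed blood cells reach the levels of embryo-derived cells. No member passed (0 of 9 in limma; background 0.11%), nor any of the 25 probe sets (background 0.0733%), and 0 of 9 genes had an unadjusted p under 0.05. Differences ran from -0.24 log2 for Tert to 0.02 for Terf1, and 8 of the 9 were below 0. Tert averaged 7.13 in iPSC against 7.37 in ESC, with a 95% interval of the difference from -0.60 to 0.11. For Tinf2 the iPSC arrays (9.85 to 10.07) lay below both ESC arrays (10.09 and 10.21), with a difference of -0.19 (interval -0.45 to 0.07, adjusted p = 0.519). Terf2ip was the only other gene of the 9 whose arrays did not overlap, also lower in iPSC, and 23.8% of all genes did not overlap. The 95% interval of each of the 9 genes held 0; its lowest end was -0.60 for Tert and its highest 0.33 for Terf1, and for Terf2ip it ran from -0.42 to 0.07.

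Whether age left a mark on these genes was asked in steady-state HSC. No member passed (0 of 9 in limma; background 1.18%), nor did any of the 25 probe sets (background 0.495%), and none of the genes had an unadjusted p under 0.05. Terf1 stood at 8.75, 8.99 and 9.12 log2 in aged against 8.47, 8.74 and 8.58 in young HSC, so that every aged array was higher (log2 0.36, SE 0.26, adjusted p = 1). Its other probe sets showed the same order without passing, 1443527_at by 1.00 and 1431332_a_at by 0.49 log2. Acd (8.04 or below in aged, 8.06 or above in young) and Terf2 were lower in all aged arrays, by 0.13 and 0.09 log2 (adjusted p = 1 each). These 3 of 9 genes without overlap compare with 18.2% of all genes.

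Tert had a difference of -0.48 log2 between aged and young steady-state HSC, with an interval from -1.33 to 0.37, while its dim probe set 1450254_at differed by 0.41 the other way (adjusted p = 1). For the remaining 8 genes the intervals lay between -0.71 and 0.94. The telomerase genes Tert and Dkc1 thus gave no call, but a second Dkc1 probe set, 1438015_at, stood at 9.84, 10.02 and 10.04 in aged against 10.42, 10.53 and 10.47 in young HSC. Its difference of -0.51 (SE 0.13) did not pass over all probe sets (adjusted p = 0.273). None of the telomere lists had a called gene here. Of 20 replication and end-processing genes 1 lay above 0 (median -0.35 log2), and of 26 proliferation genes likewise 1 (median -0.46), while all genes had a median of -0.02.

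**Figure D3:**
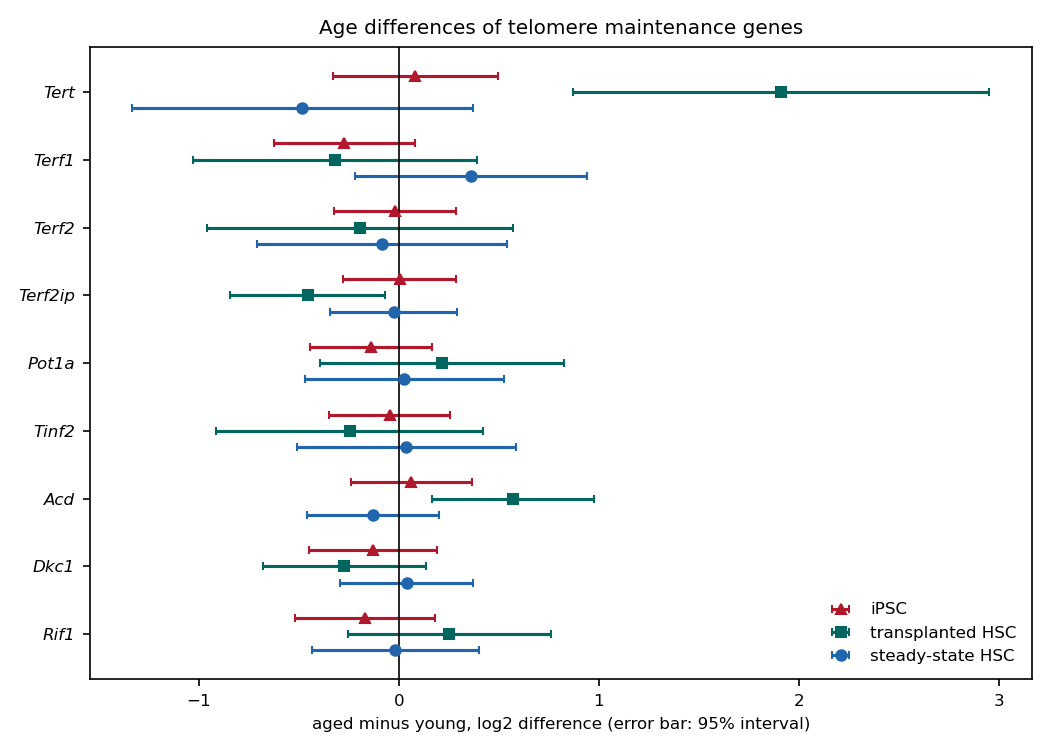
Aged minus young log2 difference (horizontal axis, error bar 95% interval) of the 9 genes in iPSC, transplanted HSC and steady-state HSC. The transplanted Tert value of 1.91 is the farthest from 0, and the iPSC and steady-state intervals all include 0.

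In transplanted HSC, Tert showed the widest age gap. It stood at 7.32 and 6.45 log2 in aged transplanted HSC, against 4.26 and 5.68 in young transplanted HSC. Both aged arrays were higher, and the young arrays lay far apart from each other. The difference of 1.91 log2 (SE 0.47) did not pass (adjusted p = 0.0866). It was 1.20 without young transplanted array 1 (adjusted p = 0.111) and 2.62 without array 2 (adjusted p = 0.0067), so its size and call turned on which young array was kept. Either fit leaves 1 young transplanted array, which is assumed to vary like the other groups. In a fit of all 16 arrays the difference of 1.91 passed (adjusted p = 0.0182). The dim probe set 1450254_at stood at 4.41 and 4.61 in aged against 4.24 and 4.03 in young transplanted HSC.

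No member passed in aged against young transplanted HSC (0 of 9 in limma, background 1.35%), nor any of the 25 probe sets (background 0.833%). An unadjusted limma p under 0.05 was found for 3 of 9, which were Tert, Acd and Terf2ip. Over all genes, 2079 of 13645 had one. Acd stood at 8.27 and 8.19 in aged against 7.79 and 7.52 in young transplanted HSC (log2 0.57, SE 0.18, adjusted p = 0.176). It was 0.71 without young transplanted array 1 (adjusted p = 0.0489) and 0.43 without array 2 (adjusted p = 0.181). Terf2ip stood at 8.26 and 8.26 in aged against 8.70 and 8.73 in young transplanted HSC (log2 -0.46, SE 0.17, adjusted p = 0.248). Terf1 had a difference of -0.32 (adjusted p = 0.706), whose sign turned with the young array kept: 0.25 without array 1 (adjusted p = 0.522) and -0.89 without array 2 (adjusted p = 0.0343). The other Terf1 probe sets had positive differences, 0.72 for 1443527_at and 0.21 for 1431332_a_at, without passing. Arrays of 4 genes did not overlap (Tert and Acd higher, Terf2ip and Dkc1 lower), against 31.7% of all genes. Dkc1 probe set 1438015_at was again lower with age, at 10.62 and 10.53 in aged against 11.15 and 11.03 in young transplanted HSC (log2 -0.52, adjusted p = 0.191). Of the telomere lists only Pola2 was called, with a fall of 0.99 log2 (adjusted p = 0.036). Of 26 proliferation genes 1 lay above 0 (median -0.37 log2).

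The difference between both age effects, transplanted minus steady-state, was tested directly. No member passed (0 of 9 in limma, background 0.125%), nor any of the 25 probe sets (background 0.0511%). An unadjusted limma p under 0.05 was found for 2 of the 9 genes, and for 1328 of 13645 over all genes. For Tert the difference was 2.39 log2 (SE 0.60, adjusted p = 0.176), and in the fit of all 16 arrays it passed (adjusted p = 0.0429). It was 1.68 without young transplanted array 1 (adjusted p = 0.11) and 3.10 without array 2 (adjusted p = 0.0122), again with 1 young transplanted array left. For Terf1 the same omissions gave -0.11 (adjusted p = 0.854) and -1.25 (adjusted p = 0.0315). For Acd the difference was 0.70 (SE 0.24, adjusted p = 0.35).

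In iPSC, aged against young origin, no member passed (0 of 9 in limma; background 0.00733%), nor any of the 25 probe sets (background 0.00888%), and none of the genes had an unadjusted p under 0.05. Tert stood at 7.03 and 7.31 in aged-origin against 6.84 and 7.34 in young-origin iPSC (log2 0.08, SE 0.18, interval -0.33 to 0.50). Terf1 had the largest difference, -0.27 (SE 0.16, adjusted p = 0.976). Pot1a was the only one of the 9 whose arrays did not overlap, narrowly, at 8.24 and 8.20 in aged-origin against 8.48 and 8.24 in young-origin iPSC, where 33.4% of all genes did not.

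Transplanted HSC differed from steady-state HSC in a way that depended on the probe set. By the probe sets standing for the genes, Terf2ip rose and Pot1a, Rif1 and Dkc1 fell, so 4 of 9 passed where 69.9% of all genes did (19.8% upward and 50.1% downward). The median of all genes was -0.46 log2, while the 9 genes had a median of -0.18. With each array centred on its median, these were -0.66 for all genes and -0.38 for the 9. Taken over probe sets with no filter, the median was -0.04 log2 for all and 0.43 for the 25 of the members. Among the 25 probe sets 10 rose and 5 fell, where 28.1% and 31.4% of all probe sets did (59.5% together). Arrays of 1 gene lay wholly higher and of 3 wholly lower, where 14.6% and 40.2% of all genes did (54.8% together). HSC marker intensity was lower on the transplanted arrays, and their median intensity per array was higher, as given above. Summed fibroblast marker intensity was 4828 to 5439 on transplanted arrays, against 1934 to 2809 on steady-state arrays. Most of these markers did not follow the sum. Of the 9 measured, 5 lay above the 25th percentile in each transplanted group, against 7 in young and 6 in aged steady-state HSC. Their median was 4.70 log2 in young and 5.15 in aged transplanted HSC, against 4.95 in young and 4.85 in aged steady-state HSC. Col3a1 and Lum were below that percentile in every HSC group, and Col5a2 and Postn in both transplanted groups. The part of marker levels or of median intensity in the differences was not tested. Of the 8 genes with several probe sets, Pot1a, Dkc1 and Rif1 each had probe sets called in both directions. That occurred for 0 of the 8 in iPSC against steady-state HSC. The share over all genes with several probe sets was not computed, so the split cannot be read as a trait of these genes.

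Pot1a shows the split most clearly. Its main probe set stood at 7.75 and 7.54 log2 in aged and 6.99 and 7.87 in young transplanted HSC, against 9.57, 9.35 and 9.38 in aged and 9.42, 9.53 and 9.27 in young steady-state HSC. It fell by 1.88 log2 (SE 0.18, adjusted p = 5.87e-06). Probe set 1432077_at of the same gene stood at 7.04 and 6.14 in aged and 6.10 and 6.50 in young transplanted HSC, against 2.92, 2.84 and 3.04 in aged and 3.20, 3.22 and 2.98 in young steady-state HSC. It thus rose by 3.41 log2 (SE 0.18), and 1440568_at and 1456369_at rose by 2.12 and 1.79. All 4 transplanted arrays exceeded all the other arrays for 1432077_at and 1440568_at, whereas arrays overlapped for 1456369_at; in iPSC and ESC 1432077_at ran from 2.80 to 3.07.

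Dkc1 had a main probe set at 9.95 and 9.68 log2 in aged and 10.07 and 10.10 in young transplanted HSC, against 10.52 or more on each steady-state array. It fell by 0.62 log2 (SE 0.12, adjusted p = 0.000883). Probe set 1441788_s_at, a type that can match several transcripts, stood at 11.15 and 10.54 in aged and 10.80 and 11.15 in young transplanted HSC, against 8.51, 8.21 and 8.27 in aged and 8.60, 8.51 and 8.56 in young steady-state HSC. It rose by 2.47 log2 (SE 0.15), and 1438015_at rose by 0.61.

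Rif1 had 2 probe sets on each side. The main one, 1429491_s_at, is also of the type that can match several transcripts. It averaged 8.78 in transplanted and 10.32 in steady-state HSC, a fall of 1.54 log2 (SE 0.15, adjusted p = 6.57e-06), and 1429490_at fell by 1.75. In contrast 1442939_at and 1437179_at rose by 1.35 and 0.92. Averaging all probe sets of a gene gave rises for Pot1a (1.36 log2), Dkc1 (0.82) and Terf1 (0.82) and left Rif1 at -0.26 without a call (adjusted p = 0.125). The direction of Pot1a, Dkc1, Rif1 and Terf1 in transplanted HSC thus depended on the probe sets taken.

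**Figure D4:**
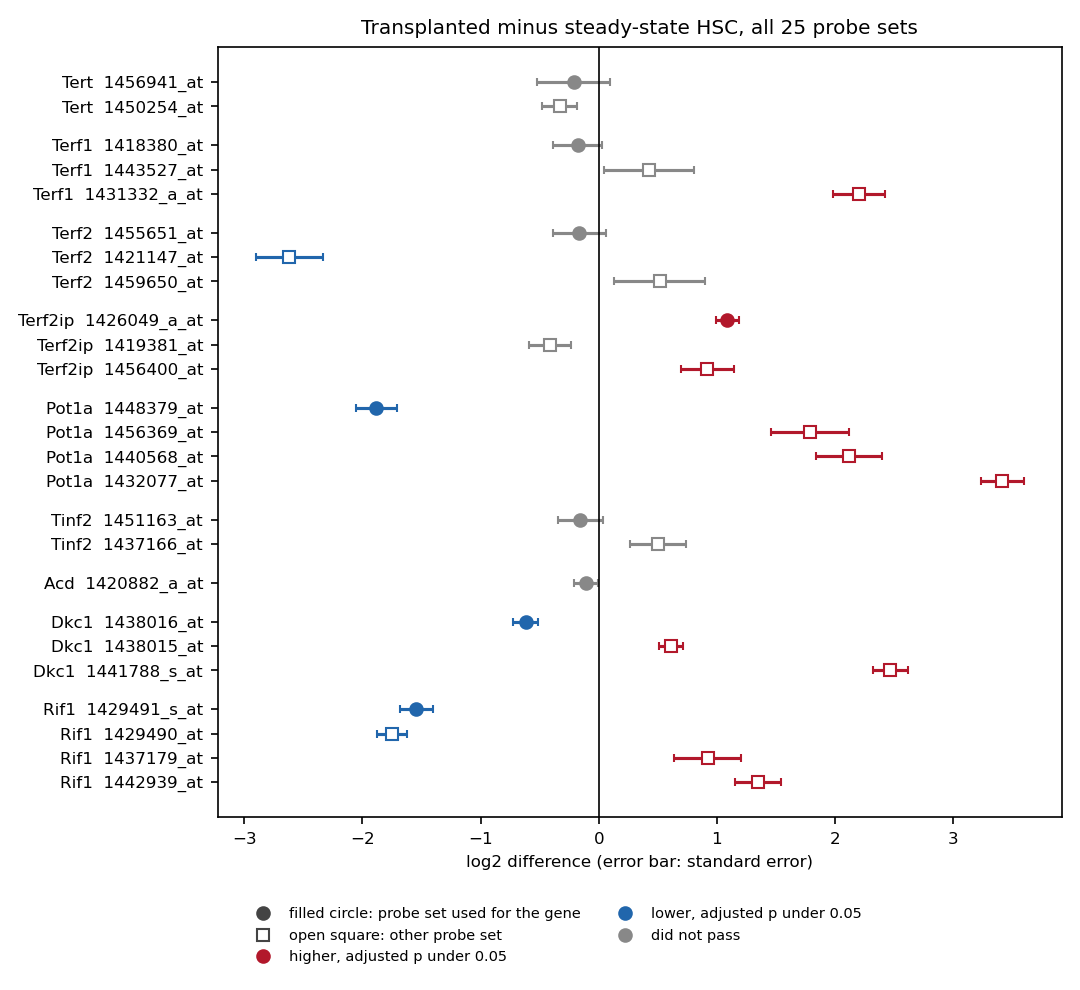
Log2 difference (horizontal axis, error bar standard error) of transplanted minus steady-state HSC for each of the 25 probe sets, grouped by gene; filled circles stand for the gene and colour marks the test. Pot1a, Dkc1 and Rif1 have probe sets on both sides of 0 that passed.

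Terf2ip stood at 8.26 and 8.26 log2 in aged and 8.70 and 8.73 in young transplanted HSC, above all steady-state arrays (7.32 to 7.52). It rose 2.13-fold (log2 1.09, SE 0.11, adjusted p = 1.16e-05); the dim 1456400_at rose by 0.92, 1419381_at had a difference of -0.41 (adjusted p = 0.0704), and the mean of all 3 gave 0.53. Tert (log2 -0.21), Terf1 (-0.18), Terf2 (-0.16), Tinf2 (-0.15) and Acd (-0.11) did not pass, with adjusted p of 0.432 or above. Without young transplanted array 1, Terf1 (-0.46, adjusted p = 0.011) and Terf2 (-0.45, adjusted p = 0.0333) passed. Without array 2 both signs turned, Terf1 to 0.11 (adjusted p = 0.496) and Terf2 to 0.12 (adjusted p = 0.524). Acd passed when each array was centred on its median (-0.31, adjusted p = 0.0363). Probe set 1421147_at of Terf2 fell by 2.62 log2, and 1431332_a_at of Terf1 rose by 2.20.

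The telomere lists in transplanted against steady-state HSC gave 5 of 18 telomerase genes rising and 7 falling, and 2 of 20 replication and end-processing genes rising and 13 falling. Over all genes 19.8% rose and 50.1% fell, 69.9% together, so that 12 of 18 telomerase genes called is close to that background. Coil, the Cajal body scaffold gene, fell by 3.64 log2, Ruvbl1 by 1.67 and Wrap53 by 1.56, and Smn1, also of Cajal bodies, rose by 2.35. Dna2 fell by 1.68, the single-strand binding gene Rpa1 by 1.37 and Pola2 by 1.13, whereas Wrn rose by 1.24 log2. In the repair and chromatin list 3 of 23 rose and 14 fell, with Dnmt3a up by 4.98 and Daxx, Xrcc5 and Atrx down by 1.54, 1.12 and 0.95 log2. Among shelterin and its partners 2 of 17 rose and 4 fell, which were, beside members, Dclre1b (up by 0.67), the nuclease scaffold gene Slx4, Tnks1bp1 and Zbtb48. Proliferation genes were split, with 9 of 26 rising and 11 falling. In the 2-cell-stage list 2 of 5 tested genes rose and 2 fell, and of 14 listed regulators of Tert 5 rose and 8 fell, among them Myc (2.05 log2) and Sp1 (-2.01 log2).

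The genes most like each member over the 16 arrays were found by the root mean square difference of centred log2 levels. Pot1a was closest to Gpbp1 (0.10 log2), Dkc1 to Spred2 (0.12) and Acd to Iars (0.13). Terf2ip was closest to Rnf14 (0.16), Rif1 to Btbd10 (0.16), Tinf2 to Mta3 (0.17) and Terf1 to Prelid2 (0.17). Terf2 was closest to Car9 (0.18), with Nek7 next (0.18). Tert was closest to Fbxo17 (0.41). Against the member's own standard deviation over the arrays, 0.87 for Tert and 0.31 for Terf1, neither of these matches was close.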

How the data were processed

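Gene expression was measured on 16 single-colour Affymetrix arrays. Per the labels, a QIAGEN microRNeasy kit yielded the total RNA, and 10000 cells gave each biotinylated cRNA. The authors deposited linear intensity values for 45101 probe sets, from 4.53 to 31493. Their summarisation and scaling were not given in the sources used here. Detection calls were not used here, and precision is limited by having 3 or 2 arrays in a group. Nothing says that samples of a group came from separate animals beyond the label biological replicate, so p-values speak only to the spread among these samples, which may be technical.

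Intensities were put on the log2 scale with no pseudocount. Gene names came from the platform annotation, where 34945 probe sets had 1 symbol, 932 several and 9160 were not listed; of 18193 genes, 18032 were found in RefSeq. The probe set with the highest mean stood for each gene, and genes below the 25th percentile of a fit were left out, which left 13645. Fits used limma 3.58.1 (lmFit, eBayes) in R 4.3.3 on the 10 HSC arrays (6 residual degrees of freedom), the 6 iPSC and ESC arrays (3), or, for iPSC against steady-state HSC, all 16 (9). A call is a Benjamini-Hochberg adjusted p under 0.05 over all genes. A second fit took all 45037 non-control probe sets with no filter. Code was tested on simulated data.

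Named genes were the members, up to 4 called genes with the smallest p per list and comparison, and the 3 nearest patterns per member. Members and lists were chosen with earlier results of these data known. Alternatives covered normalization, the dim filter, probe-set choice, the variance prior, the arrays fitted, a replicate block, a pseudocount of 64 and each array left out.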

Additional observations from a re-analysis of the deposited data

Results flagged for a closer look

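Acd had age differences of opposite sign in transplanted and steady-state HSC, with every aged array on one side of every young array in each. In steady-state HSC the margin was narrow, 8.04 against 8.06 log2. Over all genes, arrays did not overlap for 31.7% in transplanted and 18.2% in steady-state HSC. The share with opposite directions in both was not computed. For Acd, aged minus young was 0.57 log2 in transplanted HSC, against -0.13 in steady-state HSC. The difference between these effects, 0.70 log2, did not pass in limma over all genes (adjusted p = 0.35), and neither effect passed singly. No group had 4 or more arrays, so single arrays were not examined as outliers.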

How the results depend on the processing

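Of 1112 recomputed differences of single genes, 1095 stayed on their side of the threshold, 12 passed newly, 2 lost their call and 3 reversed. The reversals came from averaging all probe sets of a gene in transplanted against steady-state HSC: Pot1a 1.36, Dkc1 0.82 and Terf1 0.82 log2. A sign change between values that did not pass was not counted. In aged against young transplanted HSC, the fit of all 16 arrays called 1 gene and 1 probe set, and a pseudocount of 64 called 3 probe sets, against 0. For the difference of age effects the fit of all 16 arrays called 1 gene against 0. In steady-state age the pseudocount called 1 probe set. With 1 array left out, calls ranged from 0 to 2 genes (0 to 3 probe sets) for transplanted age and for the difference of age effects. They ranged from 4 to 6 genes (15 to 17 probe sets) in transplanted against steady-state HSC and from 7 to 8 genes (15 to 18 probe sets) in iPSC against steady-state HSC. The counts stayed at 0 for steady-state age, iPSC origin and iPSC against ESC. Same-numbered arrays showed no clear pairing: deviations from group means correlated at 0.15, -0.20 and 0.19 (steady-state HSC), -0.16 (transplanted) and -0.05 (iPSC). With 2 arrays in a group the deviations mirror each other, so crossed numbering only turns the sign. These values therefore speak to the numbering alone and cannot exclude a pairing. The replicate block gave 0, 0, 0, 4, 0, 0 and 8 called genes over the 7 comparisons, as without it, and crossed pairing of the transplanted arrays gave 0. The crossed pairing, the probe-set counts and the scaling of the gene lists were chosen after seeing the data. The cause was not tested, except that the average mixes probe sets that disagree. Dim probe sets near background limit the folds of Tert 1450254_at and of 3 Pot1a probe sets.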
